A study of Mus musculus with 23 samples.

Results

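The genes described here are 4 core genes of the circadian clock, Arntl, Npas2, Clock and Cry1, and the clock-linked gene Nfil3, in the colon of mice that drank dextran sulfate sodium (DSS), a polymer that damages the lining of the large bowel and is used to induce colitis. They are 5 of the 12463 genes tested in the series, and they were taken as every probe set, a group of short probes for one transcript, whose platform gene symbol is one of the 5 names. All animals were C57BL/6J mice, a common inbred strain, aged 12 to 14 weeks. Each of 23 arrays held total RNA of the colon of 1 animal. The groups were 5 untreated animals (day 0) and separate cohorts of 6 animals each after 2, 4 and 6 days of 3% DSS in the drinking water. Neither the hour at which animals were killed nor the segment of colon is known here, so an hour that differed with the day cannot be told apart from the day. The genes were chosen by their signals in these arrays, since the list was drawn up with the differences between days in view, and Nfil3 was set apart for its own course over the days. The values by day below are therefore a description, and calls of these genes between days are given with nothing read from them. Tests that are read are kept for variation between animals of the same day. Tests between days are also given for lists of genes outside these 5. Those lists too were made with earlier results of these data known, so their calls are a description.

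In the mammalian clock, the protein BMAL1 (the product of Arntl) pairs with CLOCK or its close relative NPAS2 and switches on genes that carry an E-box, among them the Per and Cry genes. PER and CRY proteins then block that pair, and the nuclear receptors of the Nr1d family (REV-ERB) and the ROR family compete at ROR elements to repress or activate Arntl. Nfil3 (also called E4BP4) encodes a repressor that binds the same D-box sites as the activators DBP, TEF and HLF, and it is also known from immunity, for the development of innate lymphoid cells and for interleukin genes in T cells and macrophages. In mouse tissues Arntl, Npas2, Clock and Nfil3 peak at about the opposite time of day from Dbp, and Cry1 peaks later than the other E-box genes.

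Promoters of all 5 genes were matched in RefSeq (build GRCm38.p6), as 8 windows reaching from 250 bases before to 50 bases after an annotated start. Those of Arntl, Cry1 and Nfil3 are shown as examples of windows that hold a searched motif. They are the start of Arntl with an extended ROR element, that of Cry1 with an E-box, and that of Nfil3 with a ROR core. All are written 5′ to 3′ on the strand of the gene, with the element in capitals.
Arntl, chr7:113207261-113207560, plus strand: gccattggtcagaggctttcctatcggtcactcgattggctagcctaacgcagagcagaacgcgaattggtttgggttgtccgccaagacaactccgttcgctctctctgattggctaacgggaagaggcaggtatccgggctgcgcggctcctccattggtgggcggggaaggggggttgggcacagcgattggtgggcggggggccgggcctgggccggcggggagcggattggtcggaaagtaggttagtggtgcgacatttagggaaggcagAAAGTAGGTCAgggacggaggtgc
Cry1, chr10:85185005-85185304, minus strand: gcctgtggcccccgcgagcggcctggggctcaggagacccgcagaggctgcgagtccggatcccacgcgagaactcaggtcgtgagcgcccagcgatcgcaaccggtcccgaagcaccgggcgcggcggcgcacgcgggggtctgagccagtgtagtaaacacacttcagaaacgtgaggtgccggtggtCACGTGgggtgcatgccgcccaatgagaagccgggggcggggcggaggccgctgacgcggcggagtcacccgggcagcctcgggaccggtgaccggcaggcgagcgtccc
Nfil3, chr13:52980990-52981289, minus strand: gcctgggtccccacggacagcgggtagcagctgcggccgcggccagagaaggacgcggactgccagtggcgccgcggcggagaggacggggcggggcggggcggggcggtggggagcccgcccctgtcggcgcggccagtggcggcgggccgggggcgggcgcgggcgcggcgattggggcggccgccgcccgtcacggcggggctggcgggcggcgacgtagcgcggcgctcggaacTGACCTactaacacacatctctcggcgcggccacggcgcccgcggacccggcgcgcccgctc
Positions are counted from the start, with the first transcribed base as 1. The element of Arntl covers bases 27 to 37, the E-box of Cry1 covers bases -60 to -55, and the ROR core of Nfil3 stands on the opposite strand at bases -12 to -7. Windows were searched on both strands for the E-box CACGTG, the ROR core AGGTCA, the extended ROR element and the D-box (TTATGTAA or TTACGTAA). The extended ROR element contains the core, so the match in Arntl counts under both. Of 32851 promoter windows, 7.15% held the E-box, 16.3% the ROR core, 0.384% the extended ROR element and 1.06% the D-box. A window of Clock (chr5:76303453-76303752, minus strand) also held the ROR core, on the opposite strand at bases -119 to -114. No searched motif was found in the window of Npas2 or in the other windows of Arntl and Clock, and no D-box in any of the 8. A match of letters is a description and not a measured binding site.

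Signals are the authors' linear intensities, scaled by them so that every array had a trimmed mean of 500.003 and medians between 97.3 and 121. Differences are on the log2(signal + 16) scale. Markers of neighbouring tissue varied between arrays. Of 11 pancreas markers 8 were too dim to be tested, and the sum of the other 3 was 8854 to 11480 at day 0. That sum was 87618 on day 2 mouse 6 and 25478 on day 6 mouse 1, against medians of 10378 and 5792 for those days. Squamous and skeletal muscle markers were low on day 2 mouse 8 and day 4 mouse 8, with squamous sums of 881 and 1079.8, against medians of 13831 and 28879. These 4 arrays are called below those with outlying tissue markers, 2 with a high sum of the 3 pancreas markers and 2 with low squamous and skeletal muscle markers. Technical measures of the arrays moved with day. The mean level of the hybridization controls was 11.42 ± 0.06 at day 0 (SD, n = 5), 11.35 ± 0.11 at day 2, 11.02 ± 0.12 at day 4 and 10.90 ± 0.19 at day 6 (SD, n = 6 each, log2), and the beta-actin 3′ over 5′ ratio (log2) was 0.43 ± 0.02, 0.46 ± 0.06, 0.61 ± 0.06 and 0.51 ± 0.04 on those days. Their part in the differences between days was not tested beyond the fit with the hybridization controls given below. Colon epithelium was well represented on every array, with sums of 12 of its markers between 147255 and 204529.

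Arntl, the partner without which the clock's activating pair cannot form, was lower on the DSS days than in untreated colon, most so at days 2 and 4. Its signal at day 0 was 955, 1130.1, 1121, 637 and 872 in mice 1 to 5. It lay between 401 and 692 (median 574) at day 2, between 392 and 725 (median 586) at day 4 and between 640.4 and 1057 (median 709.9) at day 6. Of the untreated animals only mouse 4 reached down into the range of days 2 and 4, and of the day 6 animals only mouse 29 reached above 872. The log2 difference was -0.74 at day 2 against day 0 (95% interval -1.10 to -0.38), -0.75 at day 4 (-1.11 to -0.39) and -0.30 at day 6 (-0.66 to 0.05), the last with an interval that includes 0. Day 4 differed from day 2 by -0.01 (-0.35 to 0.33), and day 6 from day 4 by 0.44 (0.10 to 0.78). The order of the days was thus day 0, day 6 and then days 2 and 4 together, and day 6 and day 0, like days 4 and 2, did not differ beyond their spread. A dimmer probe set of Arntl, with day means between 84.0 and 119, gave -0.17 (-0.67 to 0.33) at day 2. It gave -0.44 (-0.94 to 0.06) at day 4 and -0.22 (-0.72 to 0.28) at day 6.

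Npas2, the relative of Clock that can take its place beside BMAL1, had the lowest levels relative to day 0 of the 4 core genes at day 2. It had signals of 611, 566, 508, 265 and 392 in the untreated mice 1 to 5. The range was 143 to 326 (median 214) at day 2, 188 to 406 (median 270.2) at day 4 and 221 to 473 (median 278) at day 6. The low untreated animal was again mouse 4, and the high animal of day 6 was again mouse 29. On the signal + 16 scale Npas2 stood at 0.501 of its day 0 level at day 2 (log2 interval -1.45 to -0.54). It differed from day 0 by -0.68 at day 4 (-1.13 to -0.22) and by -0.60 at day 6 (-1.06 to -0.15). Days 2, 4 and 6 followed each other within their spread, at 0.32 (-0.11 to 0.75) for day 4 against day 2 and 0.08 (-0.36 to 0.51) for day 6 against day 4. Its second, dimmer probe set differed less from day 0, by -0.28 (-0.82 to 0.26) at day 2. It gave -0.36 (-0.90 to 0.18) at day 4, its lowest day, and -0.06 (-0.60 to 0.48) at day 6.

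Clock, which encodes the usual partner of BMAL1, varied least between animals. Its signals at day 0 were 2058, 2013, 2307, 1912 and 2108. At day 2 they ran from 1268 to 1633 (median 1484), at day 4 from 1479.8 to 2235 (median 1717) and at day 6 from 1451 to 1688 (median 1623). All arrays of day 2 and all arrays of day 6 lay below all arrays of day 0, while day 4 overlapped day 0 through mouse 1. The log2 differences from day 0 were -0.49 (-0.68 to -0.31) at day 2, -0.25 (-0.43 to -0.06) at day 4 and -0.37 (-0.56 to -0.19) at day 6. In the order of its levels (day 0, day 4, day 6, day 2), day 6 did not differ from day 4 (-0.13, -0.30 to 0.05) or from day 2 (0.12, -0.06 to 0.30) beyond the spread. The 4 probe sets of Clock did not give one course. At day 2 the other 3 differed from day 0 by -0.30 (-0.59 to -0.01), -0.03 (-0.28 to 0.22) and -0.36 (-0.84 to 0.12). At day 4 they differed by -0.21 (-0.50 to 0.08), 0.005 (-0.25 to 0.26) and -0.65 (-1.13 to -0.17). At day 6 it was -0.51 (-0.80 to -0.22), -0.40 (-0.65 to -0.15) and -0.43 (-0.91 to 0.05). The day 6 estimate was thus below day 0 on each of the 4, for the last with an interval that includes 0. The size of the differences at days 2 and 4 depended on the probe set.

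Cry1, which encodes a repressor of the BMAL1 and CLOCK pair, had lower levels at days 2 and 4 than in untreated colon and a similar mean at day 6. Its day 0 signals were 357, 444, 514, 576 and 379. They were 259.9 to 418 (median 293) at day 2, 225 to 404 (median 294) at day 4 and 286 to 797 (median 389.7) at day 6. The groups overlapped at every day, and the highest array of the series was day 6 mouse 7. The difference from day 0 was -0.54 at day 2 (-0.93 to -0.15), -0.54 at day 4 (-0.94 to -0.15) and -0.07 at day 6 (-0.46 to 0.32). Between day 6 and day 4 it was 0.48 (0.10 to 0.85).

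**Figure D1:**
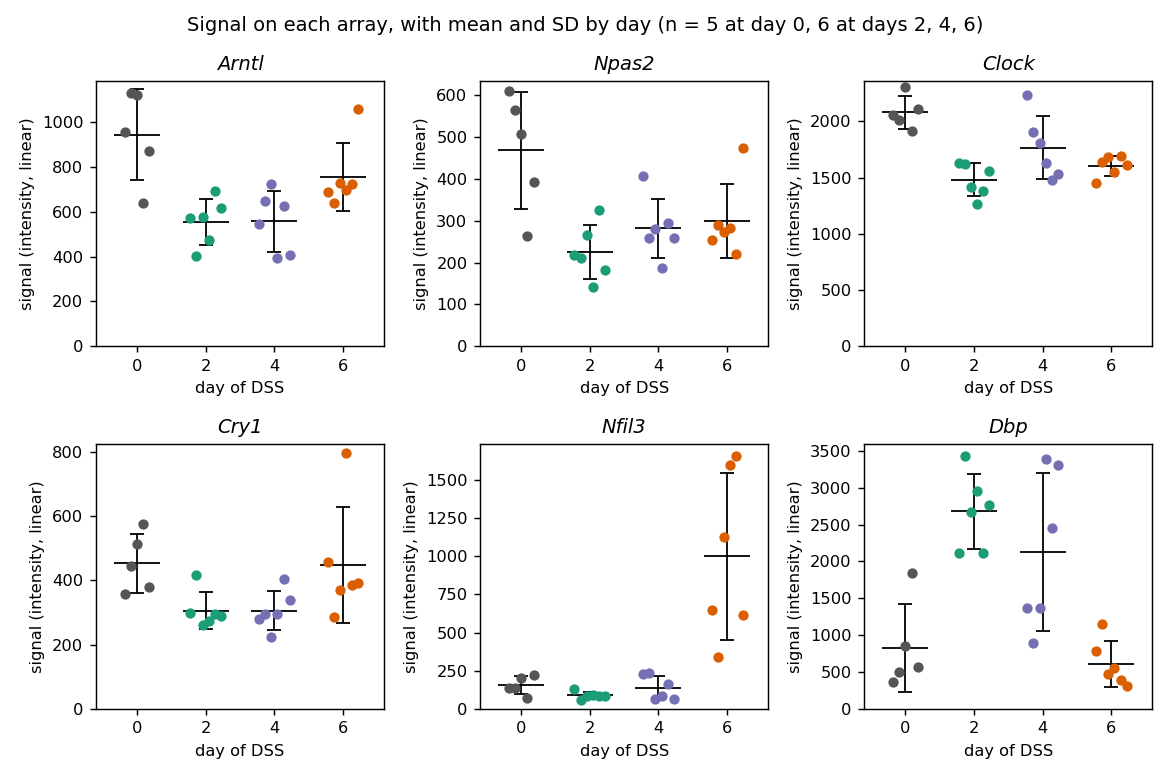
Signal (linear intensity) of the 5 genes and of Dbp on each array by day of DSS, 1 point per animal, with a black line for the mean and bars for the SD (n = 5 at day 0, 6 on each other day). Arntl, Npas2, Clock and Cry1 are highest on average at day 0, Nfil3 runs between 340.5 and 1659 at day 6, and Dbp is high at days 2 and 4.

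The median log2 difference of the 4 core genes from day 0 was -0.64 at day 2, -0.61 at day 4 and -0.34 at day 6, beside medians over all 12463 genes of 0.01, 0.06 and 0.02. At day 2, 1 of the 4 (Clock) was called lower at an adjusted p of 0.05 in limma's fit over all genes, where 0.0642% of all genes were. At day 4, 2 of 4 (Arntl and Npas2) were called lower, beside 4.34% of all genes, and at day 6, 2 of 4 (Npas2 and Clock), beside 14.4%. 0 of the 4 were called higher against day 0, beside 0.016%, 12.1% and 18.1% of all genes at days 2, 4 and 6 (0 at an unadjusted p under 0.05 as well). Between successive DSS days 0 of the 4 were called in either direction (higher at an unadjusted p under 0.05 were 1 at day 4 against day 2 and 2 at day 6 against day 4), beside 9.45% of all genes called higher and 4.12% called lower at day 4 against day 2, and 9.07% higher and 13.7% lower at day 6 against day 4. These counts come from the comparisons that chose the genes, and nothing is read from them. For Clock, arrays without overlap below day 0 stand beside 1.01% of all genes at day 2 and 6.67% at day 6. The 3 comparisons with day 0 share its 5 arrays.

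Several of these calls lay near the threshold and ended without any 1 of several arrays, while the differences stayed close to those above. The call of Clock at day 2 ended in 7 of 23 fits that each left out 1 array (day 0 mouse 1, 2, 3 or 5, or day 2 mouse 7, 8 or 17), with log2 differences of -0.50 to -0.45 there. That of Npas2 ended in 7 of 23 at day 4 (day 0 mouse 1, 2 or 3, or day 4 mouse 3, 4, 6 or 8), at -0.69 to -0.57, and in 8 of 23 at day 6 (day 0 mouse 1, 2 or 3, or day 6 mouse 1, 3, 4, 7 or 21), at -0.60 to -0.50. Those of Arntl at day 4 and Clock at day 6 stayed in all 23. A call that stays is no support for the gene here, since these comparisons were in view when the genes were chosen. Without day 0 mouse 4, the calls at day 2 became 3 (Arntl, Npas2 and Clock). With the hybridization control level as a covariate, 0 of the 4 were called on any of the 3 days. The differences themselves did not all become smaller with it, at -0.82 for Arntl at day 4 (-0.75 without it), -0.39 for Clock at day 6 (-0.37) and -0.41 for Cry1 at day 4 (-0.54).

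**Figure D2:**
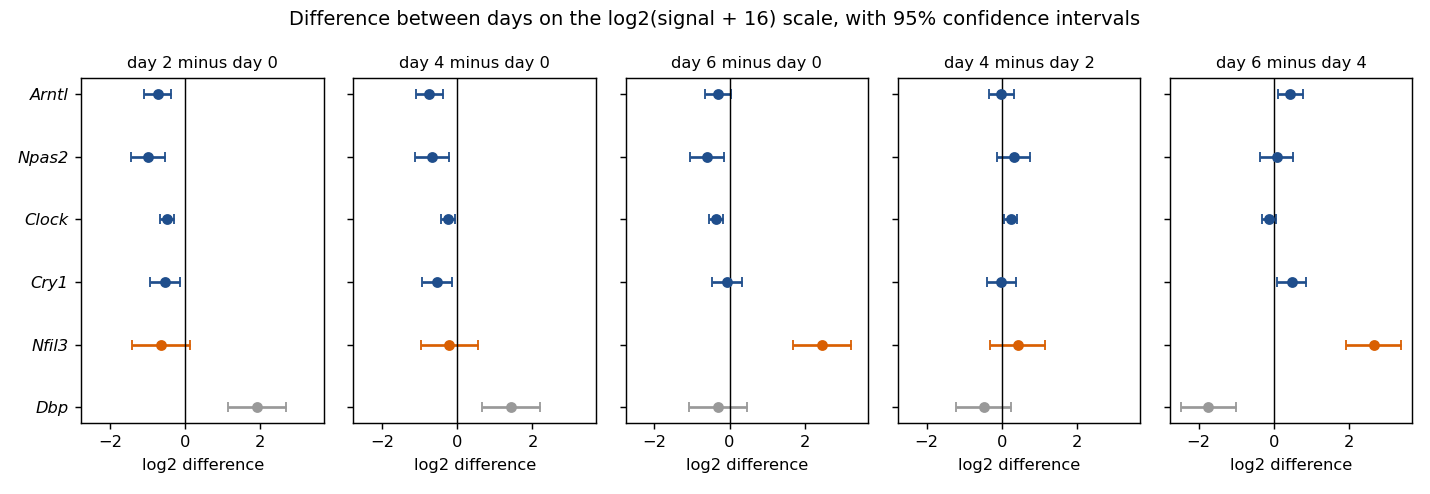
Difference between 2 days on the log2(signal + 16) scale for the 4 core genes (blue), Nfil3 (orange) and Dbp (grey), with points for the estimate of limma's fit and bars for its 95% interval. The core genes lie left of 0 in all 3 comparisons with day 0, and Nfil3 stands at 2.46 against day 0 and 2.67 against day 4 at day 6.

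Nfil3, the D-box repressor, had a course of its own. Its signals in untreated colon were 138, 134, 201, 72.8 and 222. They ran from 57.8 to 127 (median 86.0) at day 2, from 62.4 to 235 (median 123) at day 4 and from 340.5 to 1659 (median 888) at day 6. Every day 6 array lay above every array of the other days, and days 0, 2 and 4 overlapped. Its log2 difference from day 0 was -0.64 at day 2 (-1.41 to 0.12) and -0.21 at day 4 (-0.98 to 0.55), both with intervals that include 0. At day 6 it was 2.46 (1.69 to 3.23), a level 5.49 times that of day 0, and the difference from day 4 was 2.67 (1.94 to 3.40), or 6.37 times. Nfil3 was set apart for this course, so its calls in these comparisons are a description from which nothing is read. For orientation, 18.1% and 9.07% of all genes were called higher in them, and for 9.93% and 3.13% all arrays of day 6 lay above. With the hybridization controls as a covariate the difference at day 6 from day 0 was 2.57, and without the 4 arrays with outlying tissue markers named above it was 2.54. The day 6 animals spread widely, with mouse 3 at 340.5, mouse 29 at 618, mouse 1 at 650.2, mouse 4 at 1126, mouse 7 at 1602 and mouse 21 at 1659. In whole tissue, more cells that hold the transcript and more transcript per cell cannot be told apart.

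Markers of myeloid cells moved with Nfil3 at day 6. Of 10 neutrophil markers 5 passed the filter on dim probe sets, and 4 of them rose at day 6 against day 0 (S100a8, S100a9, Csf3r and Mmp9, adjusted p between 1.38e-07 and 0.000156 in limma), while Ltf differed by 0.22 (adjusted p = 0.734). Of the 5, Csf3r passed the filter only through the day 6 arrays and so had to be higher there, and the other 4 would have passed without them. The summed signal of the 5 ranged from 2169 to 13043 at day 6, against 324 to 696 at day 0. Of 12 macrophage markers, all measured, 11 rose, among them Itgam, which also passed only through day 6, and their sum ranged from 32188 to 56878 at day 6, against 19441 to 27144 at day 0. The backgrounds for these counts are the 18.1% of all genes called higher. Of the day 6 animals, mouse 3 had the lowest and mouse 21 the highest of both sums, as of Nfil3, but the order between them differed. Mouse 7, second highest in Nfil3 at 1602, had a neutrophil sum of 6976, below those of mouse 1 (8829) and mouse 29 (9178), whose Nfil3 was lower. For the macrophage sum the order was that of Nfil3, except that mouse 7 (40264) lay below mouse 4 (46899). Of 12 markers of lymphocytes and innate lymphoid cells 4 were measured (Cd79a, Cd79b, Il7r and Ms4a1), and 0 were called at day 6 by limma (1 was higher at an unadjusted p under 0.05). Their sum was 458 to 2687 at day 6, against 301 to 1160.1 at day 0. Squamous markers moved as well, with 6 of 12 called higher at day 6 and sums of 24182 to 54868 at day 6, against 7759 to 14283 at day 0. After day means were subtracted, Nfil3 and the neutrophil sum had Pearson's r = 0.51 and Spearman's rho = 0.35 over 23 arrays (permutation p = 0.0293 and 0.125, adjusted p = 0.349 and 0.631 over 42 pairs), which does not pass. Nfil3 and the macrophage sum had r = 0.48 and rho = 0.37 (permutation p = 0.0563 and 0.13, adjusted p = 0.349 and 0.631), which does not pass either. The part of these cells in the level of Nfil3 was not tested.

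**Figure D3:**
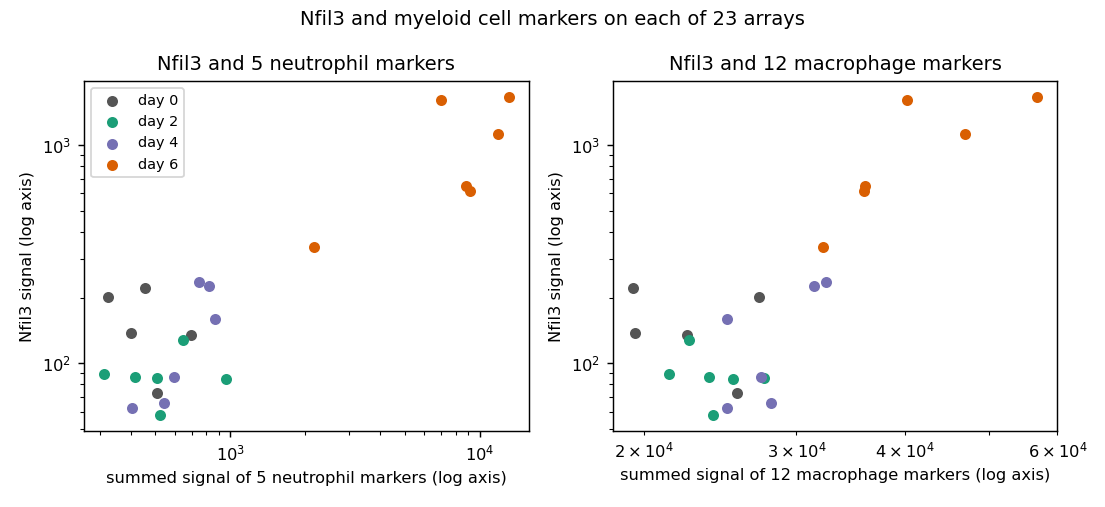
Signal of Nfil3 (log axis) against the summed signal of 5 neutrophil markers (left, log axis) and of 12 macrophage markers (right, log axis), 1 point per array, coloured by day. The 6 arrays of day 6 lie above all others in Nfil3 and in the neutrophil sum, while on the macrophage axis day 6 mouse 3 (32188) lies just below day 4 mouse 3 (32473), and among day 6 arrays mouse 3 is lowest and mouse 21 highest on all axes.

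Variation between animals of the same day gives a view of these genes that the choice of the list did not use. The mean of each day was subtracted from each gene, and the 10 pairs of the 5 genes and the 10 pairs with Dbp and Nr1d1 were tested by permuting animals within days (100000 permutations, two-sided, adjusted over the 20 pairs). Arntl and Npas2 varied together, with r = 0.67 and rho = 0.69 over 23 arrays (permutation p = 0.00173 and 0.00107, adjusted p = 0.0173 and 0.0115). Arntl varied against Dbp, the D-box activator that is switched on by the BMAL1 pair, with r = -0.72 and rho = -0.68 (permutation p = 0.00051 and 0.00115, adjusted p = 0.0102 and 0.0115). Within days 2, 4 and 6 taken singly (6 animals each, given with no test), r was 0.56, 0.46 and 0.84 for Arntl and Npas2, and -0.82, -0.78 and -0.76 for Arntl and Dbp. The other 18 pairs did not pass by Pearson's r or by rho. Of these, Npas2 with Dbp had r = -0.56 (adjusted permutation p = 0.0674), Nfil3 with Dbp r = -0.57 (0.0772) and Clock with Dbp r = -0.43 (0.192).

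Without the 2 arrays farthest from the median of Arntl (day 0 mouse 4 and day 6 mouse 29), r was 0.52 for Arntl and Npas2 and -0.62 for Arntl and Dbp. Day 0 mouse 4 had Arntl 0.53 and Npas2 0.73 below their day means and Dbp 1.39 above on the log2 scale. Without that array, r was 0.59 and -0.64, with an adjusted permutation p of 0.1 for both, so that 0 of 20 pairs passed. The pair of Arntl and Npas2 also missed the threshold without day 4 mouse 6 (r = 0.63, adjusted permutation p = 0.0563) or without day 6 mouse 29 (r = 0.60, 0.0919). With the 4 arrays with outlying tissue markers left out, r was 0.71 and -0.69 (adjusted permutation p = 0.086 for both), and with the mean of all probe sets of a gene 0.54 and -0.50 (0.121 for both). The sign was kept in every one of these.

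**Figure D4:**
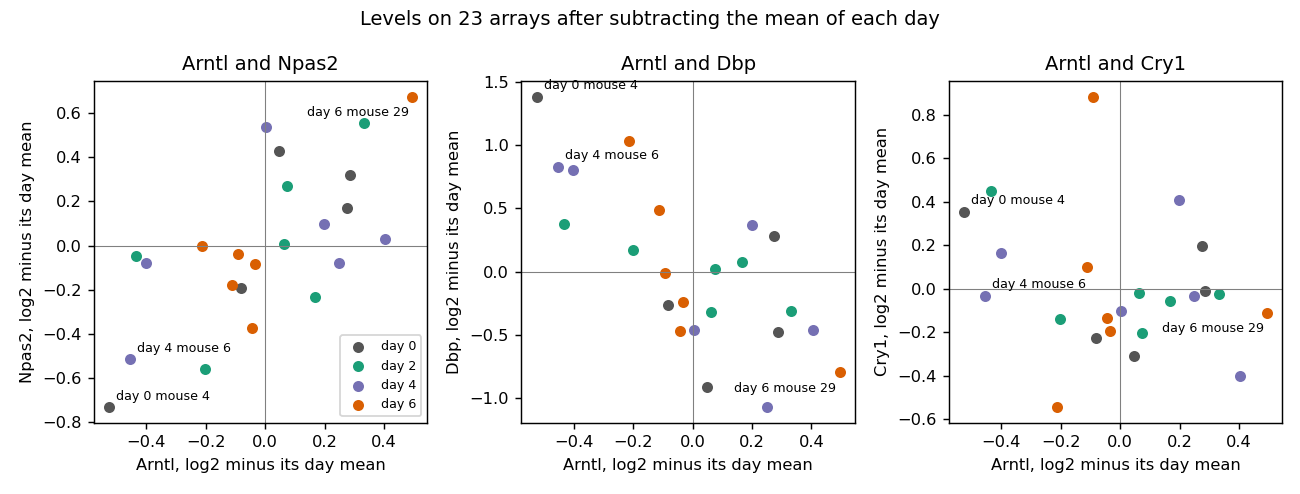
Level of Arntl on each of 23 arrays, as log2 minus the mean of its day, against the same for Npas2 (left), Dbp (middle) and Cry1 (right), coloured by day. Points climb with Arntl for Npas2 (r = 0.67), descend for Dbp (r = -0.72) and show no passing relation for Cry1 (r = -0.26), and day 0 mouse 4 stands at one end of the first 2 panels.

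No relation of Cry1 with Arntl was detected between animals of a day. Its r with Arntl was -0.26 (rho = -0.17, adjusted permutation p = 0.401 and 0.646) and with Npas2 -0.16 (rho = -0.07, adjusted permutation p = 0.585 and 0.907), and with Dbp it was 0.29 (rho = 0.35, 0.401 and 0.303). The value with Dbp was 0.65 without day 6 mouse 7 and mouse 3, the 2 arrays farthest from the median of Cry1. Cry1 and Arntl were thus both lower at days 2 and 4, while no relation between them within days passed. Nfil3 had r = 0.30 with Arntl, 0.11 with Npas2, 0.38 with Clock and 0.23 with Cry1, 0 of 4 past the threshold (lowest adjusted permutation p = 0.25, for Clock). Clock had r = 0.23 with Arntl and 0.31 with Npas2 (adjusted permutation p = 0.547 and 0.352).

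The same was asked, after those values were seen, of the 11 measured genes of 12 that peak at about the opposite time from Arntl (Dbp, Tef, Hlf, Nr1d1, Nr1d2, Per1, Per2, Per3, Cry2, Ciart and Bhlhe40, with Bhlhe41 not tested), giving 55 pairs adjusted among themselves. Arntl had a negative r with 10 of the 11, and 7 passed (Dbp, Tef, Hlf, Nr1d2, Per2, Per3 and Ciart, r from -0.73 to -0.55). For Npas2 10 of 11 were negative and 5 passed (Dbp, Tef, Nr1d2, Per2 and Ciart), with the lowest r at -0.73 for Per2. For Clock 10 were negative and 2 passed, Nr1d2 (r = -0.59) and Per3 (-0.67). Nfil3 had 10 negative, and 1 passed, its own D-box rival Dbp (r = -0.57, adjusted permutation p = 0.05). Cry1 turned the other way, with 2 negative and 9 positive, and the 2 that passed were positive, Per1 (r = 0.52) and Per2 (r = 0.56). Per1 and Per2 encode the partners of CRY1 in the repressing complex. The exception beside Arntl and Npas2 was Nr1d1, which encodes a repressor of Arntl, at r = 0.10 with Arntl and 0.41 with Npas2. Partners share arrays and correlate with each other, so the counts are not counts of independent relations. Dbp with Npas2 and with Nfil3 had not passed among the 20 pairs, at the same r (adjusted permutation p = 0.0674 and 0.0772). These 2 pairs passed only under the adjustment over the 55 pairs, which were added after those values were seen. By rho, 6 partners passed with Arntl, 3 with Npas2, 3 with Clock, 2 with Cry1 (the same 2 genes) and 0 with Nfil3.

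These counts depended on single arrays too. Without day 0 mouse 4, 0 of the 55 pairs passed for any of the 5 genes. Over the 23 fits that each left out 1 array, 0 to 8 genes passed with Arntl, 0 to 7 with Npas2, 0 to 4 with Clock, 0 to 3 with Cry1 and 0 to 3 with Nfil3. Beside day 0 mouse 4, the count moved by over 1.5 times for Npas2 without day 2 mouse 8 (3). For Clock it did so without day 2 mouse 6 or 8, day 4 mouse 4, 6 or 8, or day 6 mouse 1 (0 or 1) or mouse 7 (4). For Cry1 it was 1 without day 0 mouse 2 or 5, day 2 mouse 6, 8 or 17, day 4 mouse 4 or 8, or day 6 mouse 1, 3 or 7. For Nfil3 it moved in 18 of 23 fits, and stayed at 1 only without day 0 mouse 1 or 3, day 2 mouse 7, or day 6 mouse 7 or 21. With the 4 arrays with outlying tissue markers left out, 2 genes passed with Arntl, 3 with Npas2 and 0 with Clock, Cry1 and Nfil3. With the mean of the probe sets of a gene, 2 passed with Arntl, 1 each with Npas2 and Clock, and 0 with Cry1 and Nfil3. The pair of Nfil3 and Dbp also missed the threshold under quantile normalization, under median centring and without the filter on dim probe sets. The 5 genes and Dbp were also paired with marker sums of other cell types, the hybridization control level and the beta-actin ratio. Of these 42 pairs, 0 passed by Pearson's r (lowest adjusted permutation p = 0.349). By rho 1 passed, Nfil3 with the sum of the 3 pancreas markers (rho = -0.67, adjusted permutation p = 0.0189, r = -0.48).

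**Figure D5:**
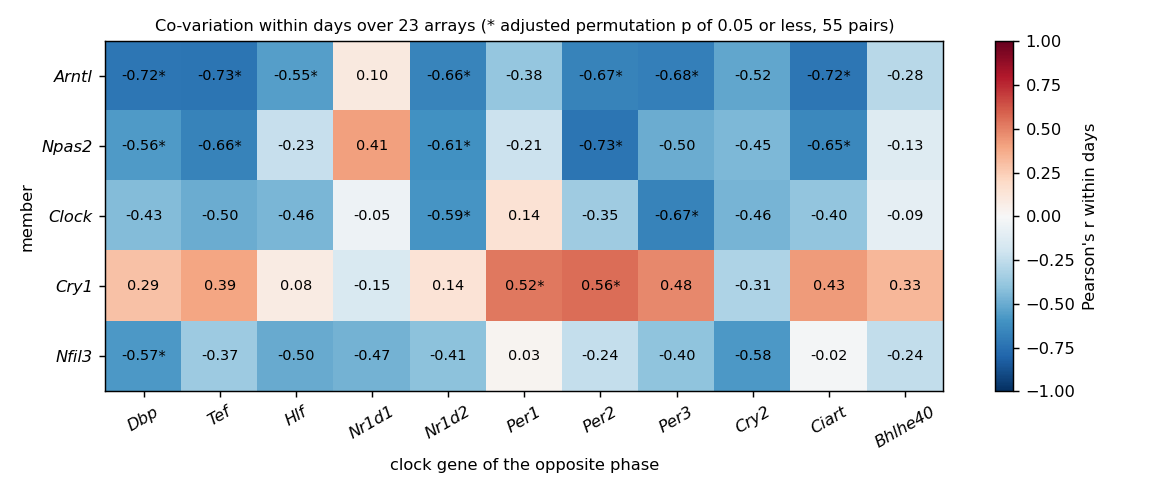
Pearson's r between each of the 5 genes (rows) and 11 clock genes of the opposite phase (columns) over 23 arrays after the mean of each day was subtracted, from blue (negative) to red (positive), with a star at an adjusted permutation p of 0.05 or less over 55 pairs. Arntl and Npas2 are mostly blue, with 7 and 5 stars, and the row of Cry1 is mostly red.

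Over the days, several genes of the opposite phase were higher at days 2 or 4 and fell again by day 6. The lists were made with earlier results of these data known, so their calls and direction are a description and not independent evidence. At day 2, 1 of the 11 rose (Dbp, log2 change 1.90 ± 0.37, SE, adjusted p = 0.043 in limma), beside 0.016% of all genes, and 10 of 11 had positive differences (median 0.56). At day 4, 4 rose against day 0, beside 12.1% of all genes. They were Dbp (1.43 ± 0.37), Per3 (1.16 ± 0.25), Tef (0.81 ± 0.22) and Nr1d2 (0.60 ± 0.13), with adjusted p of 0.0114, 0.0029, 0.0157 and 0.00388 in limma. Between day 6 and day 4, 5 fell, beside 13.7% of all genes. Dbp fell by 1.74 on the log2 scale, Per3 by 1.09, Tef by 0.81, Hlf by 0.79 and Nr1d2 by 0.64 (adjusted p between 0.000823 and 0.00796 in limma). Dbp had signals of 313 to 1154 (median 509) at day 6, against 890.3 to 3384 (median 1911) at day 4. These 5 calls held in all 23 fits that left out 1 array and with the hybridization controls as a covariate, and that of Tef ended with the mean of its probe sets. Nr1d1 kept another course, with signals of 556 to 983 at day 4, against 1035 to 1722 at day 2, a log2 change of -0.87 ± 0.19 (adjusted p = 0.00782 in limma).

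Calls against day 0 depended on the arrays and on the hybridization covariate. That of Dbp at day 2 stayed in 9 of 23 fits without 1 array and ended without day 0 mouse 1, 2, 3 or 5, without any day 2 array but mouse 1, without day 4 mouse 1, 4 or 7, and without day 6 mouse 4 or 7. It also ended with the hybridization covariate and without the 4 arrays with outlying tissue markers. The covariate ended the 4 calls of day 4, the mean of probe sets ended those of Tef, Per3 and Nr1d2, and that of Tef ended without day 0 mouse 1. Nr1d1 fell at day 6 against day 0 (-0.53 ± 0.20, adjusted p = 0.0483 in limma), a call that stayed in 9 of 23 fits and ended without day 0 mouse 2 or 3, day 2 mouse 1, 6, 7 or 8, day 4 mouse 1, 4, 6 or 7, or day 6 mouse 1, 4, 7 or 21. It also ended without the filter on dim probe sets, with only the 2 days fitted, with the covariate and without the 4 arrays, and the covariate ended the call of Nr1d1 at day 4 against day 2. Without day 0 mouse 4, 3 genes were called higher at day 2 (Dbp, Per3 and Tef) and 6 at day 4.

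Of 23 other parts of the clock, such as kinases, ubiquitin ligases and ROR receptors, 17 were measured. By limma's adjusted p 0 changed at day 2, beside 0.016% of all genes higher and 0.0642% lower, and at an unadjusted p under 0.05 there were 1 higher and 2 lower. At day 4 against day 0, 2 of the 17 rose and 0 fell, beside 12.1% and 4.34% of all genes, so the share that rose is near the background (1 was lower at an unadjusted p under 0.05). They were the kinase genes Csnk1e (0.52 ± 0.12, adjusted p = 0.00608) and Gsk3b (0.40 ± 0.07, adjusted p = 0.000536), whose products phosphorylate clock proteins. At day 6 against day 0, 5 rose and 2 fell, beside 18.1% and 14.4% of all genes. Those that rose were Timeless (0.74 ± 0.17) and Tipin (0.48 ± 0.11), which act together at replication forks, Rora (0.49 ± 0.14), which encodes an activator at ROR elements, Nampt (0.47 ± 0.12), whose product makes a precursor of NAD, and Gsk3b (0.24 ± 0.07). Those that fell were Prkaa2 (-0.36 ± 0.10), a subunit of the kinase AMPK, and Sirt1 (-0.28 ± 0.08), an NAD-dependent deacetylase, and adjusted p over the 7 was 0.00201 to 0.0146 in limma. With the hybridization covariate 0 of these calls against day 0 stayed, and with the mean of probe sets those of Csnk1e, Gsk3b, Rora and Timeless ended. At day 6 against day 4 Nampt rose (0.43 ± 0.11, adjusted p = 0.0082 in limma) and the deubiquitinase gene Usp2 (-0.62 ± 0.17, adjusted p = 0.0125), Prkaa2 (-0.37 ± 0.10) and Fbxw11 (-0.20 ± 0.05), a part of the ubiquitin ligase that marks PER proteins, fell, beside 9.07% and 13.7% of all genes. These 4 calls held with the covariate, and those of Prkaa2 and Fbxw11 ended with the mean of probe sets. At day 4 against day 2, Csnk1e (0.51 ± 0.12), Gsk3b (0.29 ± 0.06), Csnk1d (0.22 ± 0.06) and Nono (0.19 ± 0.06) rose and 0 fell (0 at an unadjusted p under 0.05 as well), beside 9.45% and 4.12% of all genes. The calls of Csnk1d and Nono ended without day 2 mouse 17 or day 4 mouse 4, and with the hybridization covariate or the mean of probe sets 0 of the 4 stayed.

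Genes with the most similar levels were taken from the other 12462 genes by Pearson's r over the 23 arrays, given as a description. Over all arrays Npas2 was the gene most like Arntl (r = 0.78), followed by Abcg2 (0.72) and Pnrc1 (0.69), and Tef (-0.85) and Per3 (-0.84) were the most opposite. After day means were subtracted, the genes most like Arntl were Ptprcap (0.80), Ier5 (0.75) and Mical1 (0.73), while the most opposite were the clock genes Tef (-0.73), Ciart (-0.72) and Dbp (-0.72). For Npas2 the most opposite gene within days was Per2 (-0.73). For Clock the most alike over all arrays was Ikzf5 (0.79) and the most opposite Rrbp1 (-0.85), and for Cry1 they were Ube2f (0.80) and Gm16136 (-0.81). Nfil3 was most like Adamts4 (0.93), Ptx3 (0.92), Hdc (0.92), Itgam (0.92), a surface integrin of myeloid cells, and Il1b (0.92), the gene of the cytokine interleukin 1 beta. These values include the differences between days, and Itgam passed the filter on dim probe sets only through the day 6 arrays. Within days the gene most like Nfil3 was the chemokine gene Ccl8 (0.81).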

How the data were processed

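Colon RNA of 23 mice was hybridized to Affymetrix mouse arrays, with 1 array for each animal. The authors deposited a linear intensity for every probe set, made with MAS5 per the submitters' processing notes (version not given in the sources used here). Replicates are separate animals per the labels, and groups come from the day in the titles. Precision is limited by how many arrays there are.

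Of 45101 probe sets, 64 were controls. The platform annotation, which can be old, gave 34945 one gene symbol, 932 several and 9160 none, and symbols were updated through gene identifiers. Probe sets above the median of their array on 5 or more arrays were kept, and the brightest kept probe set stood for a gene. All 10 probe sets of the 5 genes were kept, so the filter chose none of them. Values were analysed as log2(signal + 16), which understates changes of dim genes. Genes were fitted in R 4.3.3 by limma 3.58.1 (lmFit, then eBayes with a trend, with the 4 days in 1 fit), two-sided, with Benjamini-Hochberg adjustment over 12463 genes at 0.05. The 95% intervals of single genes are not adjusted. Within-day correlations used Python 3.11.15 with numpy 2.4.6 and permutations within days. Scripts were tested on simulated data.

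The members, the lists of genes and the settings were chosen with earlier results of these data known. Named genes were the members, the listed clock genes that passed, and for likeness the 5 most alike and 3 most opposite genes, of which some are given. Alternatives were the pseudocount, the filter, the scaling, the choice of probe set, the days in the fit, a covariate, a block on mouse number and left-out arrays. Marker lists were neutrophil, macrophage, lymphocyte and innate lymphoid, skeletal muscle, squamous, pancreas, colon epithelium and smooth muscle genes. Proteins were not analysed here.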

Additional observations from a re-analysis of the deposited data

Results flagged for a closer look

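The 5 genes, Dbp and Nr1d1 on 4 days gave 28 groups of a gene and a day. Of these groups, 3 held an animal set apart from the others of its day. The measure was the gap to the nearest animal over the range of the group, on the log2(signal + 16) scale. Chance sets apart about 1 in 20 groups. Arntl on day 6 mouse 29 was the highest of its day (signal 1057), with a gap of 0.746 of the range. Npas2 on the same array was also the highest of day 6 (signal 473), with 0.645 of the range. That animal had the lowest Dbp of day 6, at 313, and its Nfil3 was 618. Cry1 on day 2 mouse 6 was the highest of day 2 (signal 418), with 0.714 of the range. This array also had the highest sum of the 3 pancreas markers, 87618. Within days Cry1 and that sum had r = 0.09 over 23 arrays (adjusted permutation p = 0.982), which does not pass.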

How the results depend on the processing

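Counts of called core genes moved with the processing, as described values. The count called lower at day 2 against day 0 (1) was 0 with the mean of the probe sets of a gene, with the hybridization control level as a covariate and without the 4 arrays with outlying tissue markers. At day 4 (2) it was 1 without a filter on dim probe sets, 0 with the covariate and 1 without the 4 arrays, and 3 with median centring (Clock added) and with every probe set on its own, only the 2 days compared or the replicate block (Cry1 added). At day 6 (2) it was 1 without a filter, 1 with the mean of probe sets, 1 when only the 2 days compared were fitted, 0 with the covariate and 1 without the 4 arrays. Leaving out 1 array at a time gave 0 to 3, 1 to 3 and 1 to 2 called lower at days 2, 4 and 6 against day 0, and 0 to 1 and 0 to 2 called higher at day 4 against day 2 and day 6 against day 4. The within-day pairs past the threshold (2 of 20) were 0 with the mean of probe sets and without the 4 arrays, and 0 to 3 without 1 array. Nfil3 at day 6 lay between 2.15 and 2.58 above day 0 on the log2 scale over 11 alternatives and between 2.24 and 2.72 without 1 array. The covariate moves with day, and with it the calls of the core genes against day 0 ended while several differences stayed as large or larger (Arntl at day 4, -0.82). For all settings the cause was not tested. Mouse numbers were taken as names of animals only. Same-numbered arrays of different days had a mean r of 0.05 (17 pairs, 3 over 0.1, highest 0.70). For 181 other pairs it was -0.0039 (35 over 0.1, highest 0.38). With the replicate block (consensus correlation 0.03) the core counts were 1, 3 and 2, and Nfil3 at day 6 was 2.45 above day 0.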

Other observations

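Markers of smooth muscle, a layer of the colon wall, were higher at day 4 than at day 0 and lower at day 6 than at day 4. Of 10 markers 7 rose at day 4 against day 0 by limma's adjusted p, beside 12.1% of all genes, and 8 fell at day 6 against day 4, beside 13.7%. Their sum ranged from 108986 to 141019 at day 4, against 89691 to 101730.1 at day 0. The sum of 12 skeletal muscle markers had medians of 16920.3, 26021, 47332 and 31041 at days 0, 2, 4 and 6. The part of smooth muscle in the levels of the clock genes was not tested.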
